A study of Mus musculus with 16 samples.

Results

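The genes described here carry pyruvate into the mitochondrion, convert it to acetyl-CoA and oxidise it in the citric acid cycle. They were chosen by name: 32 genes were listed, and each was read from its brightest probe set (by the mean of all arrays) among those annotated with its symbol alone. Of the 32, 31 were measured, of 18193 genes in all; Mpc2 was not analysed here. The samples were 16 livers or liver tumours of male C3H/HeJ mice, each hybridised to 1 Affymetrix array.

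The series text describes a scheme in which mice received 1 intraperitoneal dose of the liver carcinogen diethylnitrosamine (DEN), 10 or 90 µg per g of body weight, when they were 2 or 6 weeks old. After 2 weeks without treatment they were given phenobarbital (PB), a drug that acts through the nuclear receptor CAR and is a classical promoter of mouse liver tumours, or none. The groups were 7 Ctnnb1-mutated tumours under PB, 3 non-tumour control livers under PB (the PB controls, which the labels number 4 to 6), 3 Ha-ras-mutated tumours without PB, and 3 non-tumour control livers without PB (the untreated controls, which had no PB). The labels of the samples give PB as 0.05% in drinking water for 27 weeks, the series text gives it as 0.05% of the diet for 28 to 36 weeks, and the treatment protocol describes a course of 28 days. The DEN dose and age of each mouse, and whether either control group received DEN, are not given per sample in the sources used here. Mutation and PB went together in the tumours, so they cannot be told apart between the tumour types. Nothing in the labels says that samples of a group came from separate mice, so the p-values measure the spread between these samples, which may be technical.

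Pyruvate enters the mitochondrion through a carrier made of Mpc1 and Mpc2 and is converted to acetyl-CoA by the pyruvate dehydrogenase complex, which kinases (Pdk) switch off and phosphatases (Pdp) switch on. Citrate synthase joins acetyl-CoA to oxaloacetate, and the cycle then oxidises citrate through isocitrate, oxoglutarate, succinate, fumarate and malate. In the liver the same intermediates are also drawn off for glucose, amino acids and fatty acids, and enzymes of glutamine and ammonia handling near the central vein are known targets of beta-catenin, the protein that Ctnnb1 encodes.

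The values are log2 intensities, on which a difference of 1 is a doubling. Array medians lay between 5.03 and 5.10. PB control 6 stood apart: its Gapdh control probes differed by 2.70 between the 3′ and 5′ ends, against -0.15 to 0.32 on the other 15 arrays; RNA degradation is known to widen this gap. Calls of the 31 genes lost or gained without this array are given with and without it. Hepatocyte markers (5 of 6 listed were measured) were high in every sample, with a summed level (log2 of the summed linear intensities) of 16.52 to 16.75, and 0 of 5 were called in either tumour comparison with limma (0 and 1 had an unadjusted p under 0.05). The summed level of the 7 macrophage markers was 11.67 to 12.71 in Ctnnb1 tumours against 12.69 to 13.28 in PB controls, and 10.55 to 12.56 in Ha-ras tumours against 12.41 to 13.01 in untreated controls. Of these 7, 2 were called lower in Ctnnb1 and 4 in Ha-ras tumours. That of the 7 stellate cell markers was 10.72 to 11.89 against 12.03 to 12.50, and 11.23 to 11.92 against 12.17 to 12.46, with 3 and 2 called lower. Single stellate cell markers went both ways, from -2.13 to 0.54 and from -2.21 to 0.75, with median changes of -0.35 and -0.28. The summed level of the 7 sinusoidal endothelial markers was 9.50 to 11.21 against 11.36 to 11.78, and 10.26 to 11.50 against 11.69 to 11.82. Of these endothelial markers, 0 of 7 were called in either comparison with limma (4 and 5 at an unadjusted p under 0.05). Their median changes were -0.74 and -0.14, and in Ha-ras tumours they ran from -1.92 (Clec4g) to 1.40. The part of these levels in the results below was not tested, and in bulk tissue fewer cells of a type and less RNA per cell cannot be told apart.

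Against their own controls, Ctnnb1 tumours had a split pattern: Cs, Idh2, Idh3a, Dlat, Mdh2 and Mpc1 rose, and Pdk1, Sdha, Sdhb, Sucla2 and Ogdh fell. These are 6 genes higher and 5 lower of 31 at an adjusted p under 0.05 (limma, Benjamini-Hochberg over all genes), or 35.5%, where 12.0% of all genes were called (6.07% higher, 5.97% lower); 16 had an unadjusted p under 0.05. Ha-ras tumours had calls in 1 direction. Against the untreated controls 9 genes fell and 0 rose (Cs, Pdk1, Pdhb, Pdp2, Suclg2, Sucla2, Sdha, Sdhb and Fh1), or 29.0%, where 13.5% of all genes were called (7.21% higher, 6.33% lower). In this comparison 26 of the 31 genes had a log2 change below 0, and 1 gene was higher and 16 lower at an unadjusted p under 0.05. The shares of all genes below 0 or at an unadjusted p under 0.05 were not counted in any comparison. Most of the 31 genes were bright: 30 were among the 9097 genes left when those with a mean below the median were dropped. Of these 9097, 1953 were called in Ctnnb1 and 1956 in Ha-ras tumours, larger shares than over all genes. The median log2 change was -0.35 over the 31 genes and -0.04 over all genes in Ha-ras tumours, and -0.07 and -0.03 in Ctnnb1 tumours. The arrays of the groups did not overlap for 21 of the 31 genes in the Ha-ras comparison (4 higher, 17 lower), where 34.8% of all genes did not (16.3% higher, 18.5% lower), and for 9 in the Ctnnb1 comparison (4 higher, 5 lower), where 12.6% did not (5.96% higher, 6.64% lower).

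Single arrays weighed on the counts. Without PB control 6 the Ctnnb1 comparison called 3 higher and 5 lower. Omitting Ctnnb1 tumours 6 and 7 as well, which earlier results of these data set apart, gave 4 higher and 5 lower. Over all 18193 genes the Ctnnb1 calls went from 2192 to 1337 without PB control 6 and to 1383 with the wider omission. The Ha-ras count of 9 lower was 3 without untreated control 1, 2 without untreated control 2 and 5 without untreated control 3. It was 2 without Ha-ras tumour 1 and 2 without Ha-ras tumour 2. Over all genes the Ha-ras calls fell too, from 2462 to 1714, 1832 and 1755 without untreated controls 1, 2 and 3. They fell to 1698 without Ha-ras tumour 1 and to 1736 without Ha-ras tumour 2. Without PB control 6 the Ctnnb1 change turned from above to below 0 for 4 genes that were called neither way: Dld (0.04 to -0.19), Idh3b (0.08 to -0.28), Idh3g (0.01 to -0.10) and Slc25a11 (0.17 to -0.19). The changes of Pdp2 (-0.54 to -0.08), Pdk2 (-0.34 to -0.10) and Suclg2 (-0.13 to -0.37), called neither way, also moved by over 0.20. Without untreated control 3 or without Ha-ras tumour 1, 1 gene (Pdk3) was called higher in Ha-ras tumours.

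The difference between the tumour changes was tested as the Ctnnb1 change minus the Ha-ras change. It passed for 4 genes, Cs, Idh3a, Dlat and Idh2, which is 12.9% of the 31, where 5.43% of all genes passed (2.14% higher, 3.29% lower). All 4 were higher in this difference, and 7 genes had an unadjusted p under 0.05. With the dimmer genes left out, 873 of 9097 genes passed, a larger share than over all genes. The genes that fell in both tumour types, Pdk1, Sdha, Sdhb and Sucla2, were not among them. The pattern by gene was therefore 1 gene higher in Ctnnb1 tumours and lower in Ha-ras tumours (Cs), 5 called higher in Ctnnb1 tumours alone (Dlat, Idh2, Idh3a, Mdh2, Mpc1), 1 called lower there alone (Ogdh), 4 called lower in both, 4 called lower in the Ha-ras comparison alone (Fh1, Pdhb, Pdp2, Suclg2) and 16 called in neither. How many of all genes had each of these joint patterns was not counted. A call in 1 comparison alone is not a difference between the tumour types unless the test of the difference passed, as it did for Dlat, Idh2 and Idh3a.

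**Figure D1:**
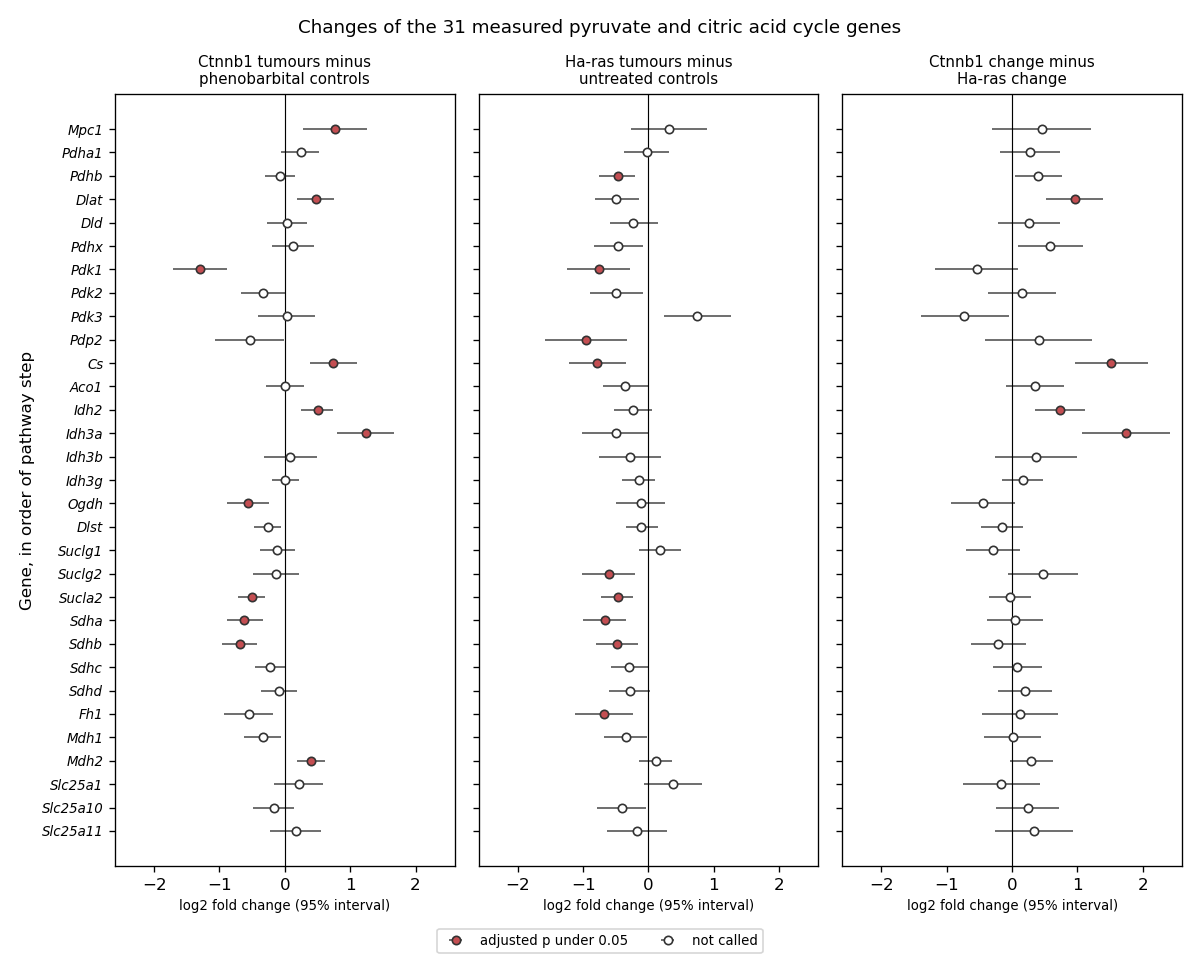
Log2 fold change (x axis) of each of the 31 measured genes (y axis, in order of the pathway) in Ctnnb1 tumours (n = 7) minus PB controls (n = 3), in Ha-ras tumours (n = 3) minus untreated controls (n = 3), and the Ctnnb1 change minus the Ha-ras change. Points are limma estimates, lines are 95% confidence intervals and filled points have an adjusted p under 0.05; Cs, Idh3a, Dlat and Idh2 are filled in the third panel.

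Cs, Dlat and Idh2 are shown by the 250 bases before their transcription start (RefSeq, GRCm38.p6), since these genes moved apart between the tumour types, and Sdha and Sdhb by the same window, since these fell in both. Idh3a is named only. Capitals mark 3 motifs searched on both strands: the GC box, which reads GGGCGG, the CCAAT box, and the consensus motif of the factor NRF1. Sequences run 5′ to 3′ on the gene's strand.
Cs, chr10:128337477-128337726, plus strand: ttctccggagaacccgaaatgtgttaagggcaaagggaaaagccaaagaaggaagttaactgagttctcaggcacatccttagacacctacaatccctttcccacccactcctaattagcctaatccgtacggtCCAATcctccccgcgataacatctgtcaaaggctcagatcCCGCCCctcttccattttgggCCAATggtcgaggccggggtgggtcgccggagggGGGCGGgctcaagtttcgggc
Dlat, chr9:50659781-50660030, minus strand: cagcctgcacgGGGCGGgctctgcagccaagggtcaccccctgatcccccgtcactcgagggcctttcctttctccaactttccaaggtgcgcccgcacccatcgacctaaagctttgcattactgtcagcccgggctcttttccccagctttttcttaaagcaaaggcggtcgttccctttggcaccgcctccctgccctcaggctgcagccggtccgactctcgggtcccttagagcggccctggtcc
Idh2, chr7:80115351-80115600, minus strand: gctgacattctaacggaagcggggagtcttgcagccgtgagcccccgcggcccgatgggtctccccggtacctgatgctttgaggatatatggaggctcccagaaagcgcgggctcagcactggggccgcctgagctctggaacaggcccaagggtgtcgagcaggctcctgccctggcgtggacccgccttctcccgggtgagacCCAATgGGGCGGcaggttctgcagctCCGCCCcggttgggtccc
Sdha, chr13:74350241-74350490, minus strand: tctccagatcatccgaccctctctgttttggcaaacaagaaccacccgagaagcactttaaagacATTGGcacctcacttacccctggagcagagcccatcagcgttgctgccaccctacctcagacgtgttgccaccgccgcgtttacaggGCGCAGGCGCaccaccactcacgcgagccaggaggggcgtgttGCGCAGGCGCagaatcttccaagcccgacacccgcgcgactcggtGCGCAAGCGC
Sdhb, chr4:140961021-140961270, plus strand: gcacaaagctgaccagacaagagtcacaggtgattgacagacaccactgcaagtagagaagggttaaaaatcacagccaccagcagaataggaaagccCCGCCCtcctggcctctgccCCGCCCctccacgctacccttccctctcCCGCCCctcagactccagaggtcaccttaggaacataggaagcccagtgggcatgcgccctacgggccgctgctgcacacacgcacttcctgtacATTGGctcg
In these windows Cs had 2 GC boxes and 2 CCAAT boxes, Dlat 1 GC box, Idh2 2 GC boxes and 1 CCAAT box, and Sdhb 3 GC boxes and 1 CCAAT box. Sdha had 1 CCAAT box and 3 matches to the NRF1 motif. No 2 matches overlapped in these 5 windows. Promoters were in the RefSeq table for 29 of the 31 genes. They had 37 promoters there, since some genes have several starts. A GC box was found in 22 of these 37 promoters and in 32.7% of all 32851 promoters of the table, a CCAAT box in 20 and in 33.8%, and the NRF1 motif in 3 (of Sdha, Sdhd and Sucla2) and in 3.74%. The TCF/LEF motif CTTTGAT, the core bound by the partners of beta-catenin, was in 0 of the 37 and in 3.21% of all. The motif AAGGTCA, the site of the ERR nuclear receptors that act on mitochondrial genes, was in 0 and in 4.08%, and the E-box CACGTG in 6 (of Ogdh, Pdk2, Pdp2 and Slc25a1) and in 6.02%. These are matches of letters in this window only.

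Citrate synthase, which makes the first product of the cycle, rose in Ctnnb1 tumours and fell in Ha-ras tumours. Cs read 11.22 at the lowest, 11.72 at the median and 12.23 at the highest in the 7 Ctnnb1 tumours, and 10.74, 10.95 and 11.22 in the PB controls. It read 9.46, 9.30 and 9.75 in the Ha-ras tumours and 10.21, 10.43 and 10.21 in the untreated controls. The tumours lay on opposite sides of their controls, and neither pair of groups overlapped at full precision; the lowest Ctnnb1 tumour and the highest PB control differ by less than the rounding. Cs rose by 0.74 ± 0.17 (log2, SE; 1.67-fold; limma adjusted p = 0.0109) in Ctnnb1 tumours and fell by 0.78 ± 0.20 (adjusted p = 0.0162) in Ha-ras tumours. The difference between the changes was 1.52 ± 0.26 (adjusted p = 0.00247), and it passed with each array left out in turn. The rise was not called without PB control 4 (0.62, adjusted p = 0.0569), and the fall was not called without untreated control 2 (-0.71, 0.0657), Ha-ras tumour 1 (-0.76, 0.0545) or Ha-ras tumour 2 (-0.68, 0.0753). Both other probe sets of Cs gave a rise in Ctnnb1 tumours (0.94 and 1.08) and a difference between the changes (1.26 and 1.75), while 1 of them gave no call in Ha-ras tumours (-0.32, adjusted p = 0.219).

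Idh3a, the catalytic subunit of the NAD-dependent isocitrate dehydrogenase that makes oxoglutarate, had the largest rise among the 31 genes in Ctnnb1 tumours. It read 9.93, 10.64 and 11.15 (lowest, median, highest) in Ctnnb1 tumours and 9.27, 9.77 and 9.11 in PB controls, with no overlap. In Ha-ras tumours it read 8.96, 8.60 and 9.10, below the untreated controls at 9.34, 9.35 and 9.49. Idh3a rose by 1.24 ± 0.20 (2.36-fold; adjusted p = 0.00133) in Ctnnb1 tumours. Its Ha-ras change was -0.50 ± 0.24 (adjusted p = 0.204), and the difference between the changes was 1.74 ± 0.32 (adjusted p = 0.00355). Both calls held with each array left out. The other subunits of the enzyme were not called: Idh3b changed by 0.08 (95% interval -0.32 to 0.49) and Idh3g by 0.01 (-0.20 to 0.21) in Ctnnb1 tumours. Of the other probe sets of Idh3a, which were dimmer, 1 was called in Ctnnb1 tumours (0.98, adjusted p = 0.0369), 1 was not (0.76, 0.0574) and the dimmest, with a mean of 5.73, gave -0.15 (0.647); in Ha-ras tumours that dimmest set was called lower (-0.76, 0.0206).

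Idh2, the mitochondrial NADP-dependent isocitrate dehydrogenase, ran between 10.42 and 10.78 in Ctnnb1 tumours, with a median of 10.49, above PB controls at 10.08, 10.21 and 9.88. It read 9.27, 9.06 and 9.52 in Ha-ras tumours, which overlapped with the untreated controls at 9.42, 9.45 and 9.69. Idh2 rose by 0.50 ± 0.12 (adjusted p = 0.0119) in Ctnnb1 tumours, the Ha-ras change was -0.23 ± 0.14 (0.311), and the difference was 0.73 ± 0.18 (0.0251). Without PB control 6 the rise was 0.41 (adjusted p = 0.071) and the difference 0.64 (0.0593). The difference was also not called without untreated control 3 (0.64, 0.0771), Ha-ras tumour 1 (0.72, 0.0582) or Ha-ras tumour 2 (0.62, 0.0772). A second, dim probe set of Idh2, with a mean of 6.22, gave -0.30 (0.119) in Ctnnb1 tumours, and the mean of both gave 0.10 (0.517). Aco1, the cytosolic aconitase that also serves as iron regulatory protein, changed by 0.00 (95% interval -0.29 to 0.29) in Ctnnb1 tumours and by -0.36 (-0.70 to -0.01) in Ha-ras tumours, with no call. In Ha-ras tumours a second probe set of Aco1, with a mean of 10.27, was called lower (-0.59, adjusted p = 0.0117), as was the mean of all its probe sets (-0.42, 0.00854); a dim one, with a mean of 4.64, was not (-0.32, 0.189).

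**Figure D2:**
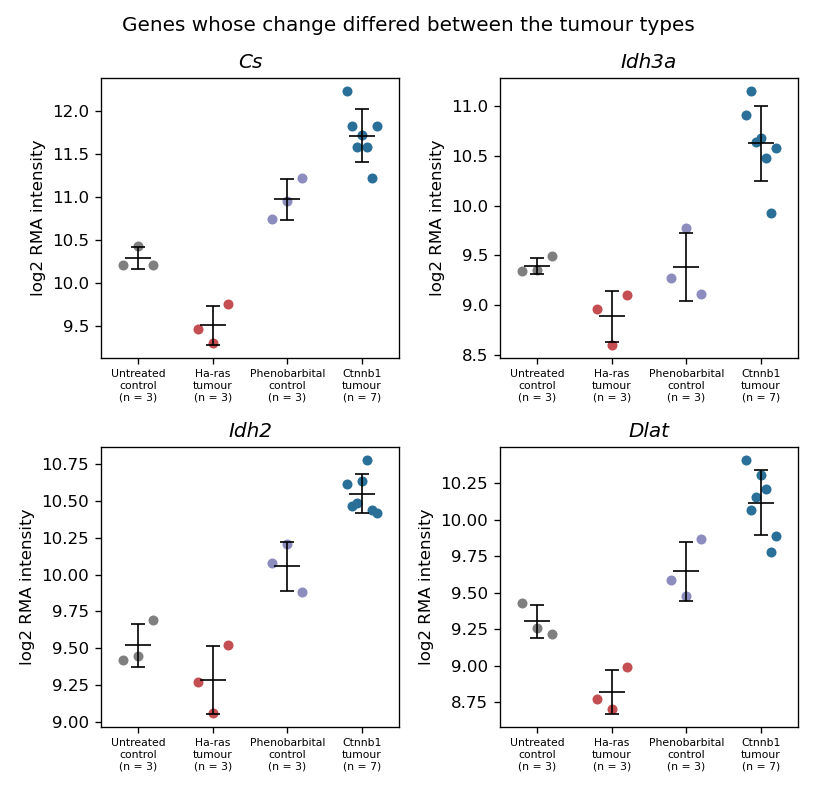
Log2 RMA intensity (y axis) of Cs, Idh3a, Idh2 and Dlat on each array by group (untreated control, Ha-ras tumour and PB control, n = 3 each; Ctnnb1 tumour, n = 7). Points are arrays, bars are the mean ± SD; all 7 Ctnnb1 tumours lie above all 3 Ha-ras tumours in each panel.

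Of the 5 subunits of the pyruvate dehydrogenase complex, Dlat, the acetyltransferase core, rose in Ctnnb1 tumours, and Pdhb, the beta subunit of the decarboxylase, fell in Ha-ras tumours. Dlat read 9.78, 10.16 and 10.41 (lowest, median, highest) in Ctnnb1 tumours and 9.59, 9.48 and 9.87 in PB controls, which overlap. It read 8.77, 8.70 and 8.99 in Ha-ras tumours, all below the untreated controls at 9.43, 9.26 and 9.22. The rise was 0.47 ± 0.13 (adjusted p = 0.0293), the Ha-ras change -0.49 ± 0.16 (0.0513), and the difference between them 0.96 ± 0.20 (0.011). In 8 of 10 other settings the Ha-ras change was called lower (-0.91 to -0.49, adjusted p from 0.00914 to 0.0416). It was also called at a dimmer probe set, with a mean of 7.37 (-0.91, 0.0365), and not at another, with a mean of 9.59 (-0.47, 0.0845). The difference held with each array left out. The rise was not called without Ctnnb1 tumour 4 (0.44, 0.0526), PB control 4 (0.45, 0.0882) or PB control 5 (0.39, 0.108). It was lost in 4 of 10 other settings (adjusted p up to 0.209). The probe set with a mean of 7.37 did not call it (0.54, 0.14), and that with a mean of 9.59 did (0.48, 0.0378).

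Pdhb read 10.39, 10.57 and 10.84 in Ha-ras tumours and 11.14, 11.06 and 11.02 in untreated controls. It fell by 0.47 ± 0.13 (adjusted p = 0.0224), and 4 of the 6 refits with 1 array omitted lost the call: without untreated control 1 (0.0822) or 2 (0.0572) or Ha-ras tumour 1 (0.116) or 2 (0.0719). In Ctnnb1 tumours its change was -0.07 (95% interval -0.30 to 0.16). Pdha1, the alpha subunit that the kinases phosphorylate, changed by 0.24 (-0.06 to 0.53) and -0.03 (-0.38 to 0.32) in the 2 tumour types. The corresponding values were 0.13 (-0.19 to 0.45) and -0.46 (-0.83 to -0.08) for Pdhx, which tethers the dehydrogenase Dld to the core, and 0.04 (-0.27 to 0.34) and -0.23 (-0.59 to 0.14) for Dld itself. Mpc1, a subunit of the pyruvate carrier, was called higher in Ctnnb1 tumours, a call that rested on 1 control among other arrays. It read 11.98 to 12.22 there, with a median of 12.12, and 11.58, 12.03 and 10.36 in PB controls, where PB control 6 was the lowest. The change was 0.77 ± 0.23 (adjusted p = 0.0383), and 0.29 (0.152) without PB control 6. The call was also lost without Ctnnb1 tumour 1 (0.0618), 3 (0.06), 4 (0.0604) or 6 (0.0549).

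Among the regulators of the complex, Pdk1, a kinase that inactivates it, had the largest fall in Ctnnb1 tumours of all 31 genes. Pdk1 read 8.12, 8.53 and 9.01 (lowest, median, highest) in Ctnnb1 tumours and 9.59, 9.91 and 9.96 in PB controls. It read 9.68, 9.25 and 9.08 in Ha-ras tumours and 10.41, 10.16 and 9.73 in untreated controls. Tumours lay below their controls in both comparisons with no overlap. Pdk1 fell by 1.30 ± 0.19 (adjusted p = 0.00059) in Ctnnb1 tumours, a call that held with each array left out, and by 0.76 ± 0.23 (0.0364) in Ha-ras tumours. The Ha-ras call was lost without untreated control 1 (-0.60, 0.159), untreated control 2 (-0.73, 0.10), Ha-ras tumour 2 (-0.71, 0.11) or Ha-ras tumour 3 (-0.63, 0.128). The difference between the changes was -0.54 (95% interval -1.18 to 0.09; adjusted p = 0.362). Of its other probe sets, that with a mean of 8.80 was called in Ctnnb1 tumours (-1.22, 0.000613) and not in Ha-ras tumours (-0.58, 0.103). That with a mean of 7.76 was called in both (-2.13, 5.78e-05; -1.22, 0.00536), and the dimmest, with a mean of 3.76, in neither (-0.47, 0.0767; -0.37, 0.274).

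Neither Pdk2 nor Pdk3 was called against the controls. Pdk3 read 5.38, 6.02 and 5.77 in Ha-ras tumours and 5.02, 4.56 and 5.32 in untreated controls, a change of 0.75 ± 0.24 (adjusted p = 0.0512). All its values were low on the array's scale, and in Ctnnb1 tumours it changed by 0.03 (95% interval -0.41 to 0.46). Pdk2 changed by -0.34 (-0.67 to 0.00; adjusted p = 0.182) in Ctnnb1 tumours and -0.49 (-0.89 to -0.09; 0.0999) in Ha-ras tumours. Pdp2, a phosphatase that reactivates the complex, read 6.91, 7.23 and 7.63 in Ha-ras tumours and 8.11, 8.20 and 8.32 in untreated controls, and fell by 0.95 ± 0.29 (0.0421). Only the refit without Ha-ras tumour 3 kept that call; the other 5 of 6 with 1 array omitted had adjusted p up to 0.168. In Ctnnb1 tumours its change was -0.54 ± 0.25 (0.177), and PB control 6 alone, at 9.11, lay above the other PB controls at 7.77 and 7.68. Without that array the Ctnnb1 change was -0.08 (0.87). The difference between the tumour changes was 0.41 (0.638), and 0.87 (0.0661) without it; it was called with array weights (0.87, 0.048) and when Ctnnb1 tumours 6 and 7 were omitted as well (0.99, 0.0168).

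**Figure D3:**
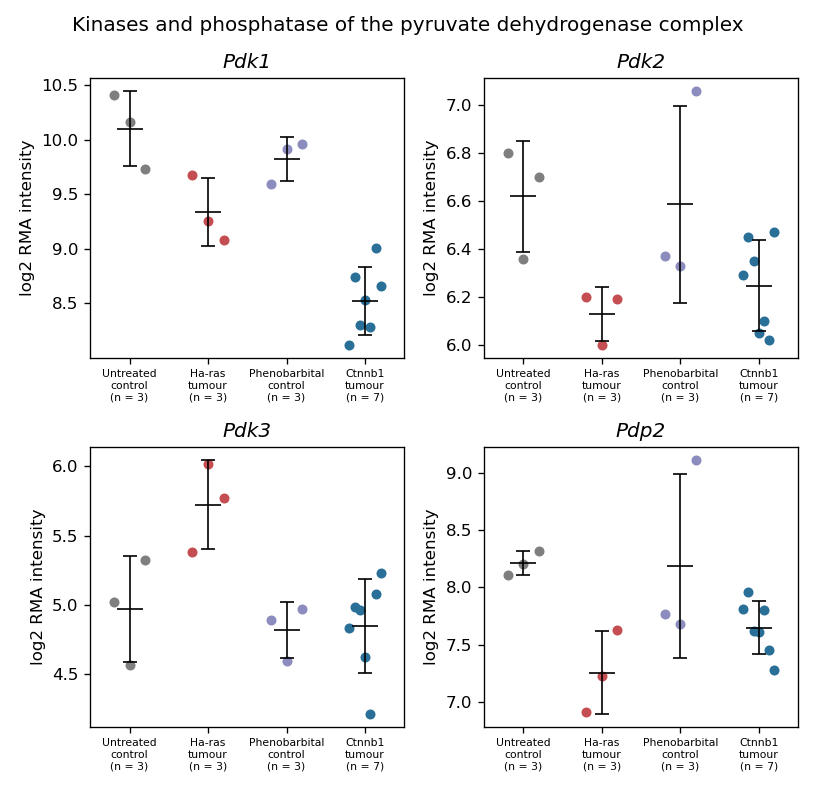
Log2 RMA intensity (y axis) of the kinases Pdk1, Pdk2 and Pdk3 and the phosphatase Pdp2 on each array by group (untreated control, Ha-ras tumour and PB control, n = 3 each; Ctnnb1 tumour, n = 7). Points are arrays and bars the mean ± SD; all 7 Ctnnb1 tumours lie at or below 9.01 for Pdk1, under all 3 PB controls.

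At the oxoglutarate and succinyl-CoA steps, 2 of 6 genes fell in each tumour type and 0 rose in either. Of all genes, 5.97% were called lower in Ctnnb1 and 6.33% in Ha-ras tumours. Sucla2, the ATP-forming subunit of succinyl-CoA synthetase, fell in both. It read 11.09, 11.30 and 11.48 (lowest, median, highest) in Ctnnb1 tumours, below PB controls at 11.81, 11.65 and 11.99, and 11.18, 11.21 and 11.38 in Ha-ras tumours, below untreated controls at 11.70, 11.78 and 11.70. The falls were 0.51 ± 0.10 (adjusted p = 0.00383) and 0.47 ± 0.12 (0.0121). The difference between them was -0.03 (95% interval -0.36 to 0.29). The Ha-ras call was lost without Ha-ras tumour 1 (-0.43, 0.0554).

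Suclg2, the GTP-forming counterpart, read 11.40, 11.04 and 11.44 in Ha-ras tumours and 11.93, 11.92 and 11.85 in untreated controls, and fell by 0.61 ± 0.19 (adjusted p = 0.0466). None of the 6 refits with 1 array omitted kept this call, with adjusted p from 0.0547 to 0.183. Ogdh, the first component of the oxoglutarate dehydrogenase complex, read 8.91, 9.19 and 9.39 in Ctnnb1 tumours and 9.83, 9.29 and 10.10 in PB controls. Its fall of 0.56 ± 0.15 (0.0237) was -0.38 (0.157) without PB control 6 and -0.52 (0.0806) without PB control 4. Dlst, the core of that complex, changed by -0.26 (95% interval -0.47 to -0.06; 0.0852) in Ctnnb1 tumours and -0.11 (-0.35 to 0.14) in Ha-ras tumours. Suclg1, the subunit shared by both synthetases, changed by -0.12 (-0.38 to 0.15) and 0.18 (-0.14 to 0.50).

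Succinate dehydrogenase, which is both a cycle enzyme and complex II of the respiratory chain, had its catalytic subunits lower in both tumour types. Sdha, the flavoprotein, read 11.05, 11.64 and 11.82 (lowest, median, highest) in Ctnnb1 tumours and 12.21, 12.17 and 12.19 in PB controls. It read 11.39, 11.60 and 11.74 in Ha-ras tumours and 12.30, 12.28 and 12.17 in untreated controls. The tumours of both kinds lay below all 6 control livers. Sdha fell by 0.62 ± 0.13 (adjusted p = 0.00676) and 0.67 ± 0.15 (0.00821), and both calls held with each array left out. The difference between the changes was 0.05 (95% interval -0.38 to 0.48). A second bright probe set of Sdha, with a mean of 11.67, gave smaller values with no call, -0.24 (0.225) and -0.45 (0.0561).

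Sdhb, the iron-sulfur subunit, read 10.97, 11.16 and 11.44 in Ctnnb1 tumours and 12.02, 12.04 and 11.48 in PB controls. It read 11.50, 11.59 and 11.83 in Ha-ras tumours and 12.14, 12.18 and 12.06 in untreated controls. Neither pair of groups overlapped. The fall of 0.69 ± 0.13 (adjusted p = 0.00285) in Ctnnb1 tumours held with each array left out. The fall of 0.48 ± 0.15 (0.0449) in Ha-ras tumours was kept without Ha-ras tumour 3 and lost in the other 5 of 6 such refits, with adjusted p up to 0.162. The membrane anchors were not called: Sdhc changed by -0.22 (95% interval -0.46 to 0.02) and -0.30 (-0.58 to -0.01), and Sdhd by -0.09 (-0.36 to 0.18) and -0.28 (-0.60 to 0.03).

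Fumarase, encoded by Fh1, hydrates fumarate to malate. Fh1 read 11.36, 11.48 and 11.81 in Ha-ras tumours and 12.34, 12.18 and 12.15 in untreated controls, and fell by 0.68 ± 0.21 (adjusted p = 0.0412). Omitting 1 array ended the call in 5 of 6 refits (adjusted p up to 0.152), all except that without Ha-ras tumour 3. In Ctnnb1 tumours it read 11.30 to 11.87, with a median of 11.70, against 12.45, 12.53 and 11.63 in PB controls. That change was -0.55 ± 0.18 (0.0512), and it was called without PB control 6 (-0.84, 0.00381). The difference between the tumour types was 0.12 (95% interval -0.46 to 0.70).

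The malate dehydrogenases close the cycle in the mitochondrion (Mdh2) and serve the malate-aspartate shuttle in the cytosol (Mdh1). Mdh2 read 12.51, 12.78 and 12.96 in Ctnnb1 tumours, above PB controls at 12.38, 12.44 and 12.29, and rose by 0.40 ± 0.10 (adjusted p = 0.0151). Without PB control 6 the change was 0.37 (0.0655), and 2 of 10 other settings lost the call (adjusted p up to 0.13). A second bright probe set of Mdh2, with a mean of 11.91, was not called (0.32, 0.122). In Ha-ras tumours Mdh2 changed by 0.11 (95% interval -0.14 to 0.36), and the difference between the tumour types was 0.29 (-0.03 to 0.62). Mdh1 changed by -0.34 (-0.62 to -0.06; 0.104) and -0.35 (-0.68 to -0.02; 0.17), with no call at its brightest probe set. Both other bright sets were called lower in Ha-ras tumours (-0.71, 0.00178, with a mean of 12.44; -0.41, 0.00795, with a mean of 12.48) and not in Ctnnb1 tumours (-0.33, 0.0699; -0.21, 0.102). Of its dim sets, that with a mean of 5.56 was called lower in both (-0.81, 0.0372 in Ha-ras tumours; -0.74, 0.0285 in Ctnnb1 tumours) and that with a mean of 4.77 in neither. The mean of all sets was called lower in both, at -0.51 (0.00045) and -0.33 (0.00535).

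**Figure D4:**
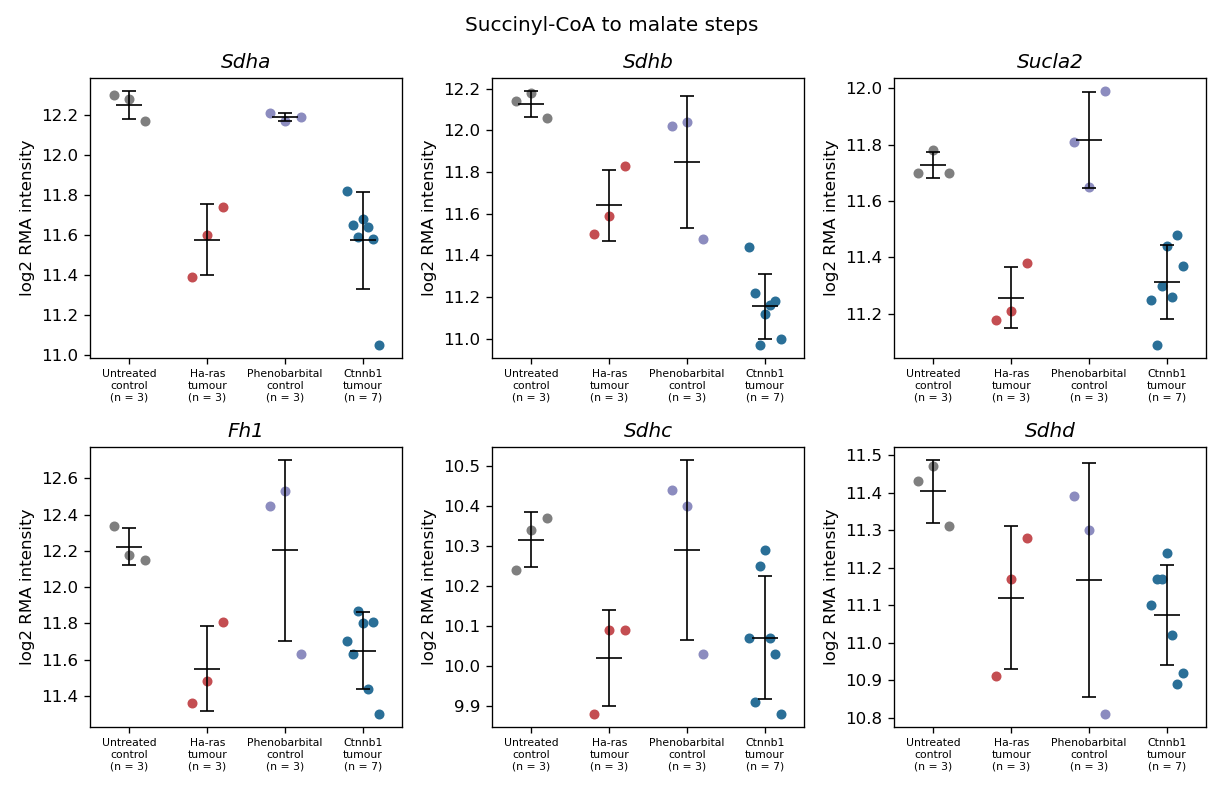
Log2 RMA intensity (y axis) of Sdha, Sdhb, Sucla2, Fh1, Sdhc and Sdhd on each array by group. There are n = 3 arrays each of untreated control, Ha-ras tumour and PB control, and n = 7 of Ctnnb1 tumour. Points are arrays and bars the mean ± SD. Ha-ras tumours lie below the untreated controls in each panel. Ctnnb1 tumours lie below the PB controls for Sdha, Sdhb and Sucla2 and overlap with them for Fh1, Sdhc and Sdhd. For Fh1, PB control 6 (11.63) lies among the Ctnnb1 tumours.

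The carriers that move intermediates across the inner membrane were not called in either tumour type (0 of 3 with limma; 0 and 1 with an unadjusted p under 0.05). The citrate carrier Slc25a1 changed by 0.21 (95% interval -0.17 to 0.59) in Ctnnb1 tumours and 0.37 (-0.07 to 0.82) in Ha-ras tumours. The dicarboxylate carrier Slc25a10 changed by -0.17 (-0.48 to 0.14) and -0.41 (-0.78 to -0.04; called with the mean of its probe sets, -0.48, 0.0363, and at the most variable one, -0.54, 0.047), and the oxoglutarate carrier Slc25a11 by 0.17 (-0.22 to 0.55) and -0.17 (-0.63 to 0.28).

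The control livers with and without PB were compared to see how far the genes differed without a tumour. None of the 31 was called with limma, where 0.214% of all genes were (0.132% higher, 0.0824% lower), and 5 had an unadjusted p under 0.05. Of these, Cs (0.68, adjusted p = 0.159), Idh2 (0.54, 0.113), Dlat (0.34, 0.353) and Ogdh (0.51, 0.229) were higher under PB, and Aco1 (-0.53, 0.176) was lower. The arrays did not overlap for 7 of the 31 genes, where 18.8% of all genes did not. Idh2 was called higher under PB with array weights (0.61, 0.0252) and with the mean of its probe sets (0.52, 0.0489).

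Set directly against each other, Ctnnb1 tumours had higher levels than Ha-ras tumours of Cs, Idh3a, Dlat, Idh2, Mdh2 and Pdha1 and lower levels of Pdk1, Pdk3, Sdhb and Suclg1. These are 6 higher and 4 lower, or 32.3% of 31, where 15.1% of all genes were called (7.21% higher, 7.90% lower). With the dimmer genes left out, 2345 of 9097 genes were called, a larger share than over all genes. The comparison uses the same tumour arrays as those above and carries the PB difference. Cs differed by 2.20 ± 0.17 (4.60-fold; adjusted p = 2.29e-07), Idh3a by 1.73 ± 0.20 (2.16e-05), Dlat by 1.30 ± 0.13 (4.53e-06) and Idh2 by 1.27 ± 0.12 (1.54e-06). Suclg1, called in neither tumour type against its controls, read 10.98 to 11.32 in Ctnnb1 tumours and 11.65, 11.55 and 11.81 in Ha-ras tumours, a difference of -0.58 ± 0.13 (0.00449). These 5 calls and that of Mdh2 (0.46 ± 0.10; 0.004) held with each array left out. The others did not: Pdk3 (-0.88 ± 0.21; 0.00774) was lost without Ha-ras tumour 2 (0.0618), Pdk1 (-0.82 ± 0.19; 0.00805) without Ha-ras tumour 1 (0.0773), Sdhb (-0.49 ± 0.13; 0.0162) without Ha-ras tumour 3 (0.0963), and Pdha1 (0.47 ± 0.14; 0.0316) in 7 of 10 refits, with adjusted p up to 0.149.

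Genes around the pathway were taken from lists chosen with earlier results of these data known. For all the list counts below, the shares of all genes called in Ctnnb1 tumours were 6.07% higher and 5.97% lower. In Ha-ras tumours these shares were 7.21% and 6.33%. Of 13 further genes of pyruvate handling, 12 were measured; 2 rose and 2 fell in Ctnnb1 tumours, and 1 rose and 2 fell in Ha-ras tumours. Their median changes were 0.36 and 0.19. Pdp1, the other phosphatase that reactivates pyruvate dehydrogenase, rose in both, by 0.87 ± 0.17 (adjusted p = 0.00454) and 1.27 ± 0.21 (0.000573), against the fall of Pdp2 in Ha-ras tumours. Ldhd, the mitochondrial D-lactate dehydrogenase, fell by 2.08 ± 0.37 (0.00127) in Ha-ras tumours, and its change differed between the tumour types by 2.62 ± 0.49 (0.00407). Pdpr, the regulatory subunit of the phosphatase, fell by 1.26 ± 0.18 (0.000203) in Ha-ras tumours. In Ctnnb1 tumours the pyruvate carboxylase Pcx, which makes oxaloacetate, fell by 0.56 ± 0.16 (0.0363), a call that 5 of 10 refits with 1 array omitted did not keep (Ctnnb1 tumour 1, 4 or 6, or PB control 4 or 5; adjusted p up to 0.152). The transporter Slc16a7 of pyruvate and lactate rose by 1.12 ± 0.26 (0.0115) in Ctnnb1 tumours, and by 0.67 (0.07) without PB control 6. The kinase Pdk4 was higher in Ctnnb1 than in Ha-ras tumours by 2.06 ± 0.41 (0.0023) and was called in neither against its controls. Its mean was also higher in PB controls (7.16) than in untreated controls (5.69), with no call.

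Of 11 relatives of the cycle and its assembly factors, 9 were measured; 0 were called in Ctnnb1 tumours with limma (1 at an unadjusted p under 0.05), and 1 rose and 1 fell in Ha-ras tumours. Their median changes were -0.01 and -0.13. The gene that rose was Acly, which splits exported citrate for fatty acid synthesis, by 1.06 ± 0.30 (adjusted p = 0.0271). This call was lost without untreated control 2 or 3 or any 1 of the Ha-ras tumours (adjusted p up to 0.144), and another probe set of Acly gave -0.88 (0.0201). Of 11 genes that link the cycle to amino acids and glucose, 10 were measured; 1 rose and 3 fell in Ctnnb1 tumours, and 1 rose and 1 fell in Ha-ras tumours. Their median changes were -0.05 and -0.37. Got1, the cytosolic aspartate aminotransferase of the malate-aspartate shuttle, fell by 3.17 ± 0.71 (0.00927) in Ctnnb1 tumours. Pck1 and Slc25a22 were the others called lower there, and Pck1 had a mean of 10.03 against 13.05 in PB controls. Pck2, the mitochondrial enzyme that turns oxaloacetate into phosphoenolpyruvate, rose by 1.82 ± 0.22 (3.98e-05) in Ha-ras tumours, to a mean of 8.15 from 6.33. The brighter Pck1 went the other way in Ha-ras tumours, with a mean of 11.61 against 13.05 in untreated controls and no call. Of 12 genes of mitochondrial mass and biogenesis, 0 were called in either tumour type with limma (2 and 0 at an unadjusted p under 0.05), and their median changes were 0.00 and -0.03.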

How the data were processed

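Total RNA from 16 samples was hybridised to Affymetrix arrays. The log2 values per probe set were deposited by the authors after RMA in R 2.14.1, per the submitters' processing notes, and were used without further scaling. RMA sets all arrays to 1 distribution, so a change shared by most genes cannot be seen. No detection calls were used, so low values may be background; the number of arrays limits the precision. Of 45101 probe sets, 34945 had 1 gene symbol, and the probe set with the highest mean stood for each of 18193 genes. Names were matched by Entrez identifier to RefSeq GRCm38.p6 (31 of 31, 0 renamed).

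Groups were fitted with limma 3.58.1 in R 4.3.3 (lmFit over all 16 arrays, 1 coefficient per group, then eBayes), with statmod 1.5.0 and the package data.table (1.17.8), in 5 comparisons. p-values were two-sided and adjusted by Benjamini-Hochberg over all genes in each comparison, with a threshold of 0.05; the code was tested on simulated data. All 31 genes were eligible to be named. Of other genes, up to 4 per list and comparison could be named, those called with the largest changes. The genes and all lists were chosen with earlier results of these data known. Promoters were the 250 bases before each start. Alternatives were other probe sets, scalings, filters, variance settings, a replicate block and omission of arrays. Samples were not paired by replicate number in the main fit. Tumours and controls were also correlated over all genes, as deviations from their group means. In the Ha-ras groups this gave 0.0302 to 0.399 for the same number and -0.322 to 0.0709 for different numbers. In the Ctnnb1 groups it gave -0.116 to 0.13 and -0.185 to 0.149. The labels do not say whether same-numbered samples were paired.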

Additional observations from a re-analysis of the deposited data

Results flagged for a closer look

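Sdha in Ctnnb1 tumour 7 read 11.05, against 11.58 in the nearest of the other 6, a gap of 0.685 of the group's range, above Dixon's 95% critical value for 7 samples. Chance flags about 1 in 20 groups, and 31 genes were examined. The fall of Sdha in Ctnnb1 tumours was called with and without this array.

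The change in Ctnnb1 tumours and the change in Ha-ras tumours differed by the limma test of the difference itself for 4 genes: Idh3a by 1.74 (log2), Cs by 1.52, Dlat by 0.96 and Idh2 by 0.73. PB accompanied the Ctnnb1 tumours and their controls, and its part in these differences cannot be told apart from that of the mutation.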

How the results depend on the processing

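Over the 5 comparisons, 34 calls were made on the 31 genes, and 9 held in every setting other than single probe sets: Cs, Dlat, Idh2, Idh3a and Mdh2 between the tumour types, Cs and Idh3a in the difference of the changes, and Idh3a and Pdk1 in Ctnnb1 tumours. Of 328 refits without 1 array, 268 kept the call, 60 lost it and 0 changed direction; of 339 with other settings the counts were 293, 46 and 0. Leaving out 1 array gave 3 to 6 genes higher and 4 to 6 lower in Ctnnb1 tumours, 0 to 1 and 2 to 8 in Ha-ras tumours, 3 to 4 and 0 in the difference of the changes, 0 and 0 between the controls, and 5 to 6 and 3 to 4 between the tumour types. Over all 18193 genes such refits called 1337 to 2219 in Ctnnb1 tumours and 1698 to 2273 in Ha-ras tumours, against 2192 and 2462 with all arrays.

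With a replicate block, 2 genes were higher and 1 lower in Ctnnb1 tumours, and 4 were lower in Ha-ras tumours. Over all 18193 genes this block called 804 in Ctnnb1 tumours, against 2192 in the main fit. In Ha-ras tumours it called 2324, against 2462. Whether the numbers mark pairs is not known (2 of 3 Ha-ras controls and 0 of 3 PB controls correlated best with their own number). No paired analysis was possible between the controls because they share no number. Over the numbers shared by the tumour types, a replicate block chosen after seeing the data gave 6 genes higher and 1 lower in Ctnnb1 tumours. Suclg1 (0.0618), Pdk1 (0.0614) and Sdhb (0.232) lost their calls. Over all genes that block called 1668, against 2750 in the main fit. In Ha-ras tumours, 1 gene (Pdk3) was called higher under quantile normalization, eBayes with trend and robust settings, array weights, and omission of PB control 6 with Ctnnb1 tumours 6 and 7. That omission also called 1 gene (Suclg1, -0.52) lower in the difference of the changes, and Pdp2 higher there (0.99) and between tumours (0.50), as array weights did (0.87 and 0.51). Lower calls appeared in other settings too: of 10 tried in Ha-ras tumours, 8 gained Dlat, 3 Pdhx, 2 each Pdk2, Mdh1 and Slc25a10, and 1 Aco1; of 10 in Ctnnb1 tumours, 5 gained Fh1 and 2 Mdh1. Between the controls, 1 gene (Idh2) was called higher with the mean of all probe sets and with array weights. The causes of these shifts were not tested.

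For 26 of the calls the gene had other probe sets, which gave 51 results, with a probe set counted once per call. Of these, 22 kept the call, 22 kept the direction without a call and 7 had the other sign. The 7 were not called themselves (limma adjusted p of 0.119 or higher). They came from probe sets of Idh2 (-0.30 in Ctnnb1 tumours, -0.37 in the difference), Idh3a (-0.15 in Ctnnb1 tumours), Sucla2 (0.00 in Ctnnb1, 0.01 and 0.10 in Ha-ras tumours) and Sdha (0.07 in Ha-ras tumours). The means of these probe sets over all arrays were 6.22 or lower. Acly had reversals at its other probe sets too, of -0.88 in Ha-ras tumours, 0.20 and 0.18 in the difference and 0.10 between tumours. With 3 arrays in 3 of the 4 groups, small differences may have gone uncalled, and values near the array medians of about 5.03 may be background.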
